A study of Mus musculus with 12 samples.

Results

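The 54 genes described here carry the cell through DNA replication and division: 24 replication genes, which act from the G1 to S decision through DNA synthesis, and 30 mitosis genes, which act from entry into mitosis to the separation of the daughter cells. They were taken by symbol from a list of cell cycle genes, and all 54 were found among the 16335 genes of the table, which covers 12 RNA libraries. The libraries were made from frozen tumors of the mouse sarcoma line BVMA01R, whose genotype is labelled Myf5-Cre;p53-/-;Ass1-/-, in female C57BL/6J mice. All 4 groups share this line and genotype, so the tumor line lacks p53 in each of them, and every comparison is within 1 line. The untreated group, the chloroquine group, the ADI-PEG20 group and the group given ADI-PEG20 plus chloroquine have 3 libraries each. ADI-PEG20 is a pegylated arginine deiminase, an enzyme that removes arginine from the blood. Cells without Ass1 (argininosuccinate synthase) cannot make arginine from citrulline. Chloroquine is a lysosomal inhibitor that blocks the last step of autophagy. Doses, times and the age of the mice are not given in the sources used here, and nothing in the labels ties each library to its own animal, so p-values measure only the spread between these samples.

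Cyclins and their kinases order the cycle. Cyclin D and cyclin E kinases release the E2F factors, which switch on replication genes at the G1 to S boundary, and a later wave, driven by MuvB complexes with B-Myb and Foxm1, switches on the mitosis genes in G2. In the absence of p53 the p21 arm that represses both waves through the DREAM complex is weakened. Because each wave is made mostly by dividing cells, the summed RNA of these genes is often read as a measure of how many cells of a tumor are in cycle. In bulk tumor RNA, fewer cycling cells and less RNA per cell cannot be told apart.

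The promoters of the 2 gene groups carry different short motifs, and the sites are shown because they mark the split between replication and mitosis genes that the comparisons use. The cell cycle genes homology region (CHR), a MuvB contact searched here as TTTGAA or TTCGAA, lies near the start of many mitosis genes, and the E2F motif was searched as TTTCCCGC, TTTGGCGC, TTTCGCGC or TTTGCCGC. Each line gives 30 bases around 1 match, 5′ to 3′ on the gene's strand, with the motif in capitals.
Plk1: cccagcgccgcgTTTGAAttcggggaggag
Aurka: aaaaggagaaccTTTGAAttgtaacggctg
Cdk1: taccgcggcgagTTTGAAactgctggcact
Ccnb2: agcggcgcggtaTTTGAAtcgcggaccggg
Cenpf: ggcggcgggcagTTTGAAtcgctcgtgctg
Mcm5: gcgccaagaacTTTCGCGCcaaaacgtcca
Mcm6: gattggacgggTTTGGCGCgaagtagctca
Mcm3: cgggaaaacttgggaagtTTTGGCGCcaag
These bases come from RefSeq, build GRCm38.p6. They lie at chr7:122159453-122159482 (Plk1, plus strand), chr2:172370521-172370550 (Aurka, minus strand), chr10:69352910-69352939 (Cdk1, minus strand), chr9:70421533-70421562 (Ccnb2, minus strand), chr1:189688067-189688096 (Cenpf, minus strand), chr8:75109345-75109374 (Mcm5, plus strand), chr1:128359734-128359763 (Mcm6, minus strand), chr1:20820263-20820292 (Mcm3, minus strand).

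Promoter windows of 250 bases before to 50 after the start were found for 43 of the 54 genes, 23 mitosis and 20 replication genes, and both strands were searched. A CHR match was present in 18 of the 23 mitosis windows (78.3%) and in 4 of the 20 replication windows (20%), against 14% of the windows of all genes in the table and 19.4% of all 27025 windows. An E2F match was present in 1 mitosis window (4.35%) and in 7 replication windows (35%), against 3.90% and 2.32%. CCAAT, the NF-Y motif, was present in 20 mitosis windows (87.0%) and 12 replication windows (60%), against 37.8% and 37.9%. CHR and CCAAT occurred together in 18 mitosis windows (78.3%), so each mitosis window with a CHR match also had CCAAT. A match is a description of the letters, not a measured site.

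The 250 bases before the start are shown for the mitotic kinases Plk1 and Aurka, which had the lowest unadjusted p of the mitotic entry genes with ADI-PEG20, and for the helicase subunit Mcm5, which had the lowest among the licensing genes. Capitals mark CCAAT and, in Mcm5, the stretch TTTCGCGCCAAA, in which E2F matches on both strands overlap.
Plk1: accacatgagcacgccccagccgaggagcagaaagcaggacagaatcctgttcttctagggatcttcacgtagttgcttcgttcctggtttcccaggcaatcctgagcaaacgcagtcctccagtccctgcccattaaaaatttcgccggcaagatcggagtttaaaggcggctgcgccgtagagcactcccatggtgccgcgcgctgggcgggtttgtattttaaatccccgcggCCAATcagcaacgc
Aurka: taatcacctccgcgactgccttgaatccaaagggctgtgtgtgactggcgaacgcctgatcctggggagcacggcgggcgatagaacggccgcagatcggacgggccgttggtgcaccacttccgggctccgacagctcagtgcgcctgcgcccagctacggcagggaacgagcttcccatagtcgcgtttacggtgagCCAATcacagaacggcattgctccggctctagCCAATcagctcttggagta
Mcm5: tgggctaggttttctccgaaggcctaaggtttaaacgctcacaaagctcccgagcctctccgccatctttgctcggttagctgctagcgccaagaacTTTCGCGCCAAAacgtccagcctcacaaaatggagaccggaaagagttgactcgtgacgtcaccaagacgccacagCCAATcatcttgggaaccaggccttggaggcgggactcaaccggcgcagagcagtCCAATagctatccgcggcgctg
They lie at chr7:122159185-122159434 (Plk1, plus strand), chr2:172370571-172370820 (Aurka, minus strand), chr8:75109259-75109508 (Mcm5, plus strand) of RefSeq build GRCm38.p6. The CHR of Plk1 and of Aurka lies just past the start and is printed among the short sites above. CCAAT occurs once in the Plk1 stretch and at more than 1 place in those of Aurka and Mcm5. The remaining 11 genes were Ccnd1, Depdc1b, Cdc25c, Tpx2, Ccna2, Foxm1, Aurkb, Kif20a, Ccne2, Fancd2 and Mcm4.

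The libraries held 15501998 to 28410940 reads in the genes of the table. The lowest read number of any of the 54 genes was 18, for Depdc1b in the ADI-PEG20 1 library, so each gene was measured in every library. Values are given as log2 CPM (reads scaled by library size, on a log2 scale, where 1 unit is a doubling). Some libraries stood apart from their groups in other genes. The summed level of 10 skeletal muscle markers, all detected in every library, was 65.1 to 2067 CPM in untreated, 640.1 to 785 in chloroquine, 70.2 to 2857 in ADI-PEG20 and 65.2 to 117 CPM in the libraries of the combination, and the highest were ADI-PEG20 1 and untreated 1. ADI-PEG20 1 also had the highest sum of 7 adipocyte markers, 288 CPM against 25.4 to 135 CPM elsewhere, and the single noncoding transcript Gm26917 took 22.8% of its reads and 16.4% of those of untreated 2. Of the 7 sarcoma and myogenic line markers in the table, Vim was even, from 11.03 to 11.82 log2 CPM, but the myogenic genes were not. Myod1 and Myog were near the floor in untreated 1, at -0.36 and -1.0 log2 CPM (19 and 12 reads), against 4.45 and 2.57 in untreated 2 and 4.16 and 4.61 in untreated 3. Myf5 went the other way in untreated 1, which was its highest library, at 5.76 log2 CPM (1360 reads). Its lowest library was ADI-PEG20 1, at 3.62 (154 reads). Myod1 was 1.48 to 2.63 and Des 6.58 to 6.78 in the libraries of the combination, against 3.66 to 5.28 and 7.50 to 8.37 with chloroquine, and ADI-PEG20 3 was also low, at 2.04 and 5.95. For both agents against chloroquine, 5 of these 7 markers were lower (median -1.0). Counts and medians of the 54 genes and of each role are given with and without untreated 1 and ADI-PEG20 1. This covers ADI-PEG20 against untreated and the interaction. The pair was chosen after seeing the data.

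Levels differed widely among the 54 genes. Per kilobase of exon, the most abundant in untreated tumors were the G1 kinase Cdk4 at 53.3 CPM per kb, its partner cyclin D1 (Ccnd1) at 36.2, the sliding clamp Pcna at 24.5 and the helicase subunit Mcm4 at 24.4. The scarcest were the phosphatase Cdc25c at 1.42 CPM per kb, the DEP domain gene Depdc1b at 1.51 and the crosslink repair gene Fancd2 at 1.66. Over the 12 libraries the range of a gene's log2 CPM had a median of 0.96, below the 1.17 of all genes. The helicase subunit Mcm3 had the narrowest range, 0.52, and the spindle checkpoint gene Mad2l1 the widest, 2.20. Chek1 (2.18), Ttk (2.12), Depdc1b (1.91), Brca1 (1.83) and Ccnb1 (1.77) followed. ADI-PEG20 1 was the lowest library for Mad2l1 and for each of these. The other spindle checkpoint and anaphase genes had narrow ranges, from 0.59 (Espl1) to 0.90 (Bub1), so ranges differed within this role. All replication checkpoint and repair genes lay above the median range, with Fancd2 at 1.24.

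**Figure D1:**
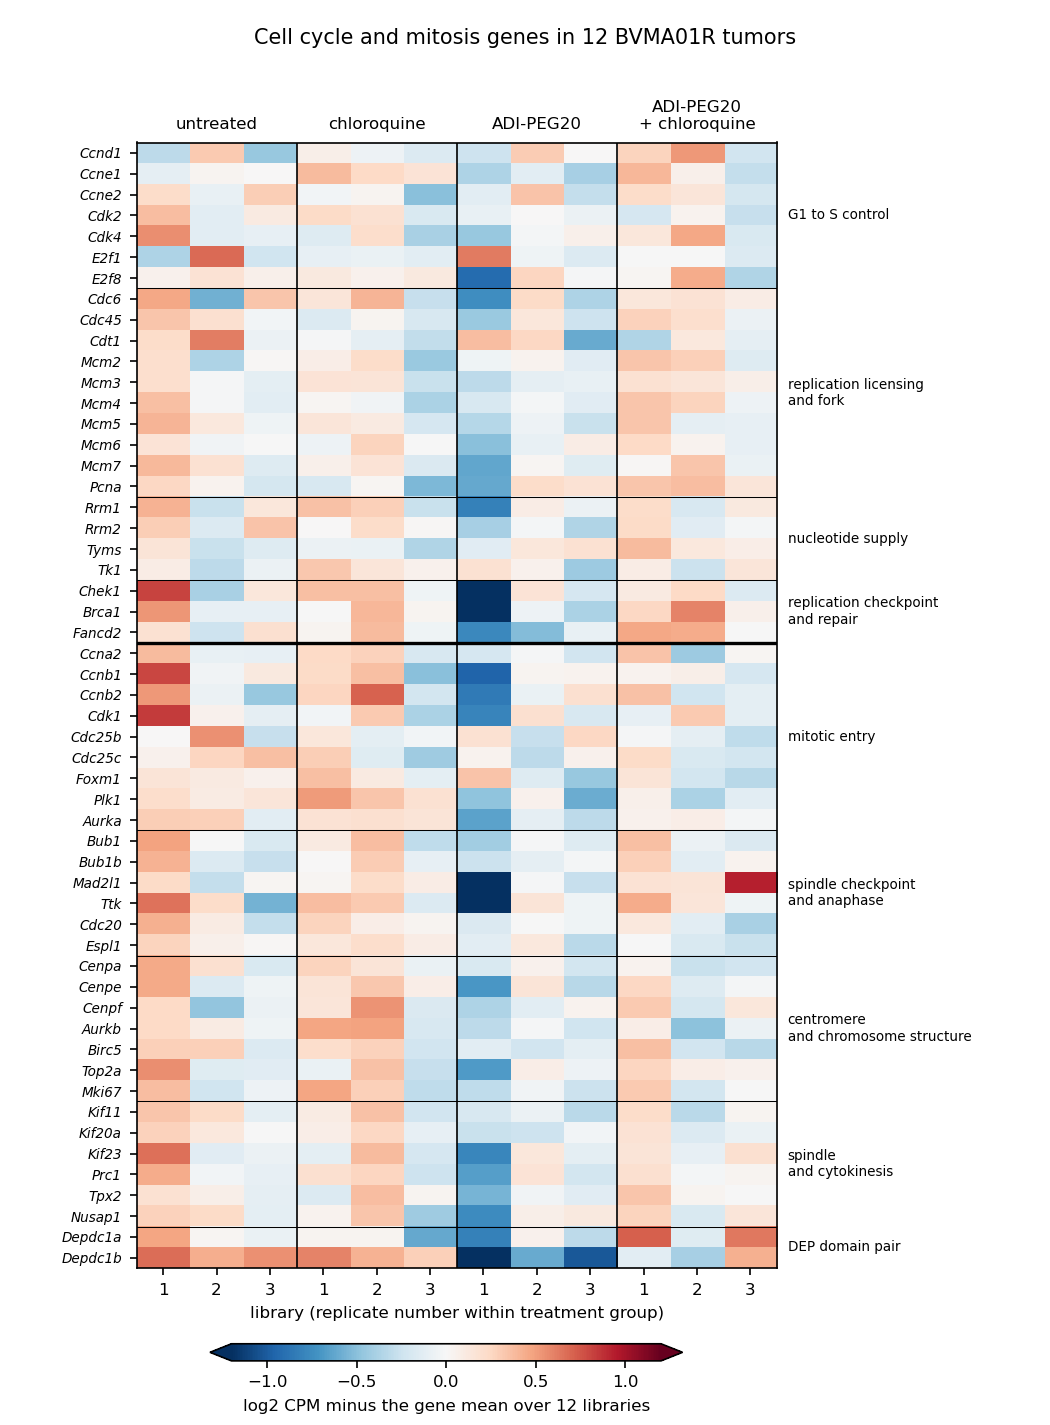
Log2 CPM of each of the 54 genes in the 12 libraries, drawn as the difference from that gene's mean over the 12 libraries, with rows grouped by role and columns by treatment group. The untreated 1 column is high and the ADI-PEG20 1 column low over most rows, and these libraries held the highest and the lowest value of the 12 for 26 and 31 genes.

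With ADI-PEG20 alone, 49 of the 54 genes had a lower mean log2 CPM than untreated tumors, where 51.3% of all genes did. All 30 mitosis genes and 19 of the 24 replication genes were lower, with median log2 differences of -0.30 and -0.25, beside -0.01 over all genes. The differences were small against the spread between libraries: limma called no gene at an adjusted p under 0.05, neither any of the 54 nor any of the 16335 (0%). At an unadjusted p under 0.05, 6 of the 54 were lower, namely Depdc1b, Aurka, Plk1, Brca1, Rrm2 and Mcm5, where 3.13% of all genes were lower by that rule. Every ADI-PEG20 library lay below every untreated library for 5 genes, Ccne1, Mcm5, Plk1, Kif20a and Depdc1b, where 4.54% of all genes did so, and for none in the higher direction, where 5.57% of all genes did so. The authors' deposited table called none of the 54 in any comparison and gave Depdc1b a log2 difference of -1.404 with an adjusted p of 0.857. For the 121 genes of the KEGG cell cycle set, which holds 29 of the 54, the authors' deposited table gave a one-sided adjusted p of 0.231 in the lower direction with ADI-PEG20, and for the 35 genes of the DNA replication set 0.742.

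The median difference depended on 2 libraries. ADI-PEG20 1 lay below the mean of the other 2 ADI-PEG20 libraries for 46 of the 54 genes, by a median of -0.33, and untreated 1 lay above the mean of untreated 2 and 3 for 47, by a median of 0.36. These are the libraries with the highest skeletal muscle marker levels, whose part in the result was not tested. Without ADI-PEG20 1 the median difference was -0.16 with 47 genes lower (49.3% of all genes), and without untreated 1 it was -0.18 with 45 lower (52% of all genes). Without both it was -0.02, and 31 of 54 were lower, 17 of 30 mitosis and 14 of 24 replication genes, where 48.9% of all genes were. Genes that then lay above 0 included Ccnb2 at 0.32, Ttk and Cenpf at 0.23, Bub1b at 0.16, Top2a at 0.15, Cdk4 at 0.13 and Kif23 at 0.11, while E2f1 turned to -0.32 and Depdc1b stayed at -1.30. Untreated 1 was the highest of its 3 for 43 of the 54 genes (32.9% of all genes). ADI-PEG20 1 was the lowest of its 3 for 39 (41.5%). Leaving out both therefore moves the difference toward 0 for most of the 54, so it cannot test whether the shift is real. Without untreated 2 the median was -0.29, as with all libraries. With ADI-PEG20 1 left out as well it was -0.23, and 45 of 54 were lower, where 49.4% of all genes were. Of the mitosis genes 26 of 30 were then lower, and of the replication genes 19 of 24.

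**Figure D2:**
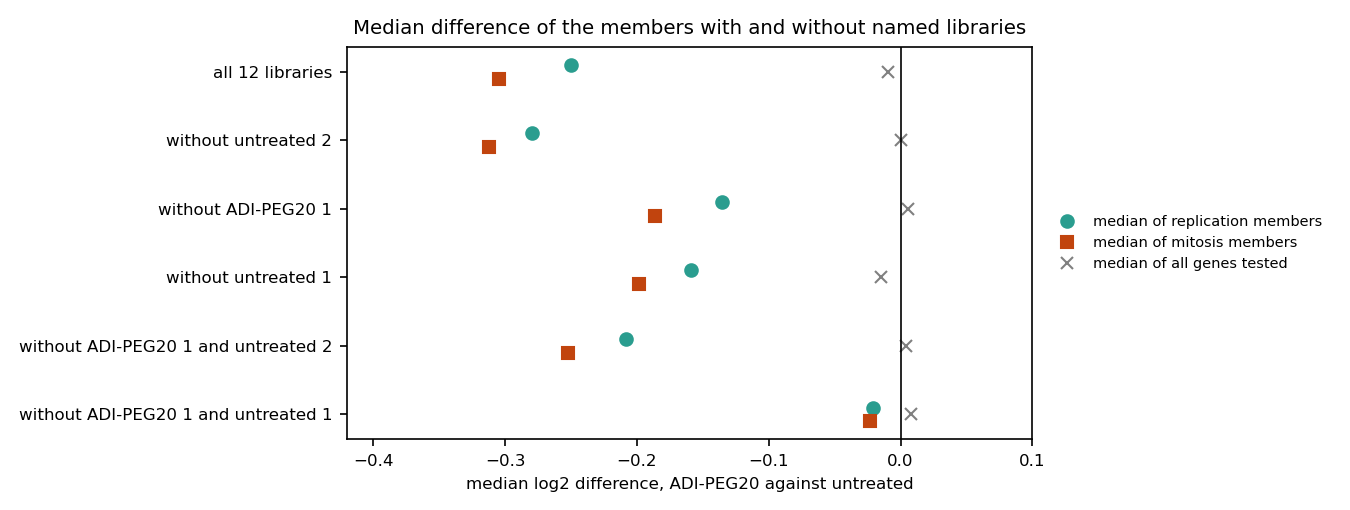
Median log2 difference between ADI-PEG20 and untreated tumors for the 24 replication genes (circles), the 30 mitosis genes (squares) and all genes (crosses), with all 12 libraries and with the named libraries left out. The medians of both groups move from -0.25 and -0.30 with all libraries to about those of all genes without ADI-PEG20 1 and untreated 1. Without ADI-PEG20 1 and untreated 2 they are -0.21 and -0.25.

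With chloroquine alone, 29 of the 54 genes were lower than in untreated tumors and the median difference was -0.02, where 50.7% of all genes were lower. Without untreated 1 the median was 0.09. The replication and mitosis medians were -0.03 and -0.01, with 14 of 24 and 15 of 30 genes lower. None of the 54 and no other gene passed an adjusted p of 0.05 (0%), and none of the 54 had an unadjusted p under 0.05, where 3.4% of all genes did. Only Ccne1 lay above every untreated library in every chloroquine library (3.69% of all genes), and none lay below (3.72%).

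With both agents, 33 of the 54 genes were lower than in untreated tumors and the median was -0.06, where 49.2% of all genes were lower. Of the mitosis genes 22 of 30 were lower (median -0.10), and of the replication genes 11 of 24 (median 0.02). No gene passed an adjusted p of 0.05 (0%), and none of the 54 had an unadjusted p under 0.05, where 8.65% of all genes did. Depdc1b, Espl1 and Plk1 lay below every untreated library in every library of the combination (7.92% of all genes), and none lay above (7.46%). Without untreated 1 the median turned to 0.08, with 20 of the 54 lower, where 49.3% of all genes were.

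The combination set against ADI-PEG20 alone asks what chloroquine adds to arginine removal. Here 46 of the 54 genes were higher with both agents, by a median of 0.26, and 8 were lower, where 48.9% of all genes were lower. Of the replication genes 21 of 24 were higher (median 0.28), and of the mitosis genes 25 of 30 (median 0.24). No gene passed an adjusted p of 0.05 (0%). At an unadjusted p under 0.05, 6 of the 54 were higher, Fancd2, Mad2l1, Brca1, Depdc1b, Depdc1a and Aurka, where 1.41% of all genes were higher by that rule. In 7 genes, Mcm3, Brca1, Fancd2, Aurka, Mad2l1, Tpx2 and Depdc1b, every library of the combination lay above every ADI-PEG20 library (4.7% of all genes). Without ADI-PEG20 1 the median was 0.12, with 44 genes higher and 10 lower, where 51.5% of all genes were lower. This comparison and the one of ADI-PEG20 with untreated tumors share the 3 ADI-PEG20 libraries, so a low value there makes the one lower and the other higher.

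The combination set against chloroquine alone gave a median of -0.01, with 28 of the 54 genes lower, where 48.6% of all genes were lower. Of the replication genes 8 of 24 were lower (median 0.06), and of the mitosis genes 20 of 30 (median -0.10). Without library 2 of the combination these were 7 of 24 (median 0.03) and 15 of 30 (median -0.01), and 22 of the 54 were lower, where 48.2% of all genes were. That library, chosen after seeing the data, had the lowest level of mitosis genes against replication genes. Leaving it out therefore cannot test the gap between these gene groups. The difference between replication and mitosis genes here was not tested. No gene passed an adjusted p of 0.05 (0%). Plk1 alone was lower at an unadjusted p under 0.05 (3.67% of all genes), and Pcna and Tyms were higher (3.11% of all genes). Plk1, Espl1 and Aurka lay below every chloroquine library in every library of the combination (9.57% of all genes), and Pcna and Tyms lay above (8.78%).

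The interaction, which is the difference made by ADI-PEG20 in the presence of chloroquine minus that in its absence, was below 0 for 11 of the 54 genes and above 0 for 43, with a median of 0.28, where 49.6% of all genes were below 0. None passed an adjusted p of 0.05 (0%), and 3 of the 54, Depdc1b, Depdc1a and Cdc45, were higher at an unadjusted p under 0.05, where 1.9% of all genes were. All 10 licensing and fork genes were above 0 (median 0.41), as were all 6 spindle and cytokinesis genes (median 0.34). The interaction uses both libraries that stood apart. Without ADI-PEG20 1 and untreated 1 its median was 0.02, with 25 of the 54 below 0, where 50.3% of all genes were, and 8 of the 10 licensing genes (median 0.19) and 4 of the 6 spindle genes (median 0.08) were above 0.

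**Figure D3:**
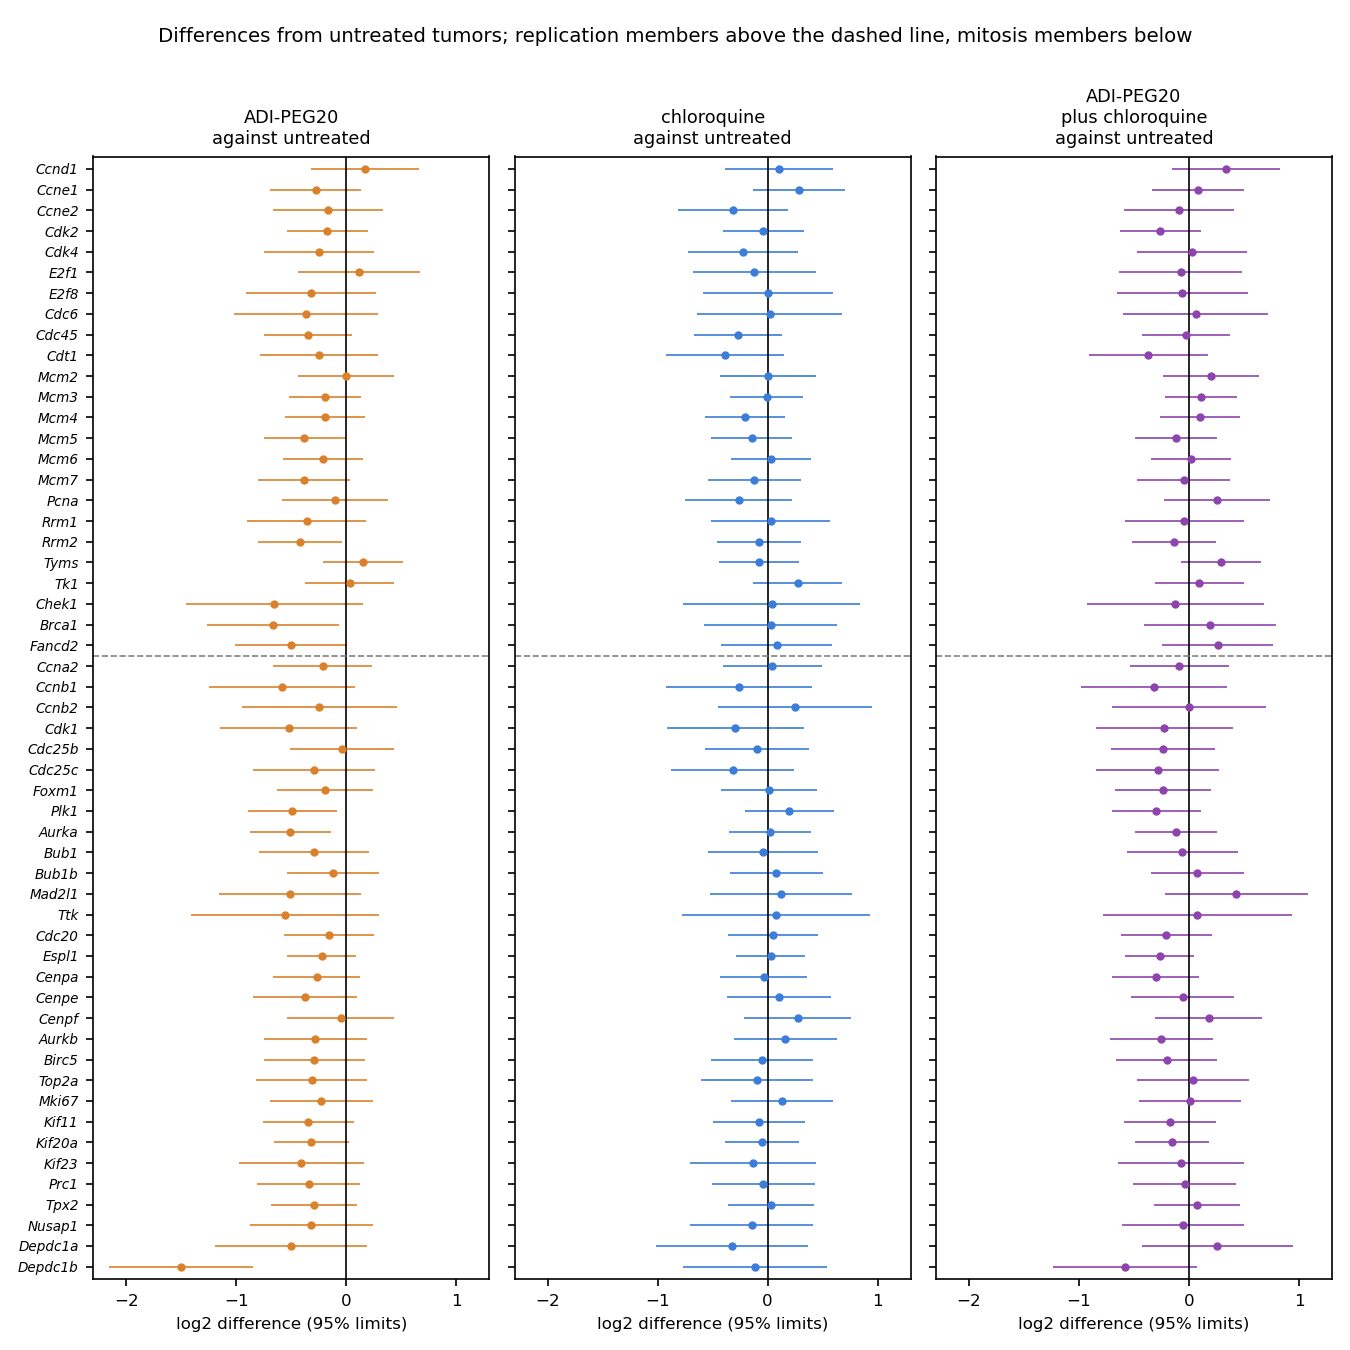
Log2 difference from untreated tumors, with 95% limits from limma, for each of the 54 genes with ADI-PEG20, chloroquine and both agents; replication genes stand above the dashed line and mitosis genes below it. With ADI-PEG20 alone all 30 mitosis genes lie below 0, and with chloroquine alone 15 of them do.

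Replication and mitosis genes were then compared as groups. The mean log2 CPM of the 24 replication genes was 5.41 ± 0.15 in untreated tumors, 5.35 ± 0.18 with chloroquine, 5.17 ± 0.22 with ADI-PEG20 and 5.44 ± 0.15 with both (SD, n = 3). That of the 30 mitosis genes was 5.12 ± 0.24, 5.10 ± 0.23, 4.76 ± 0.24 and 5.02 ± 0.17 in the same order. Mitosis minus replication was -0.20, -0.26 and -0.41 in the untreated libraries, -0.23, -0.21 and -0.31 with chloroquine, -0.44, -0.43 and -0.36 with ADI-PEG20, and -0.33, -0.66 and -0.28 with both. The ADI-PEG20 values overlapped the untreated ones, and the widest spread was in the combination, where library 2 stood at -0.66. In that library 17 of the 30 mitosis genes but 4 of the 24 replication genes were the lowest of their group of 3 (35.3% of all genes). There 11 replication but 3 mitosis genes were the highest (34.9% of all genes). The group means of this difference were -0.29 ± 0.11, -0.25 ± 0.05, -0.41 ± 0.05 and -0.42 ± 0.21 (SD, n = 3), so the combination stood -0.13 from untreated, and -0.01 without that library. The library was singled out after its low value was seen. Leaving it out was therefore bound to shrink the distance from untreated and cannot test it.

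**Figure D4:**
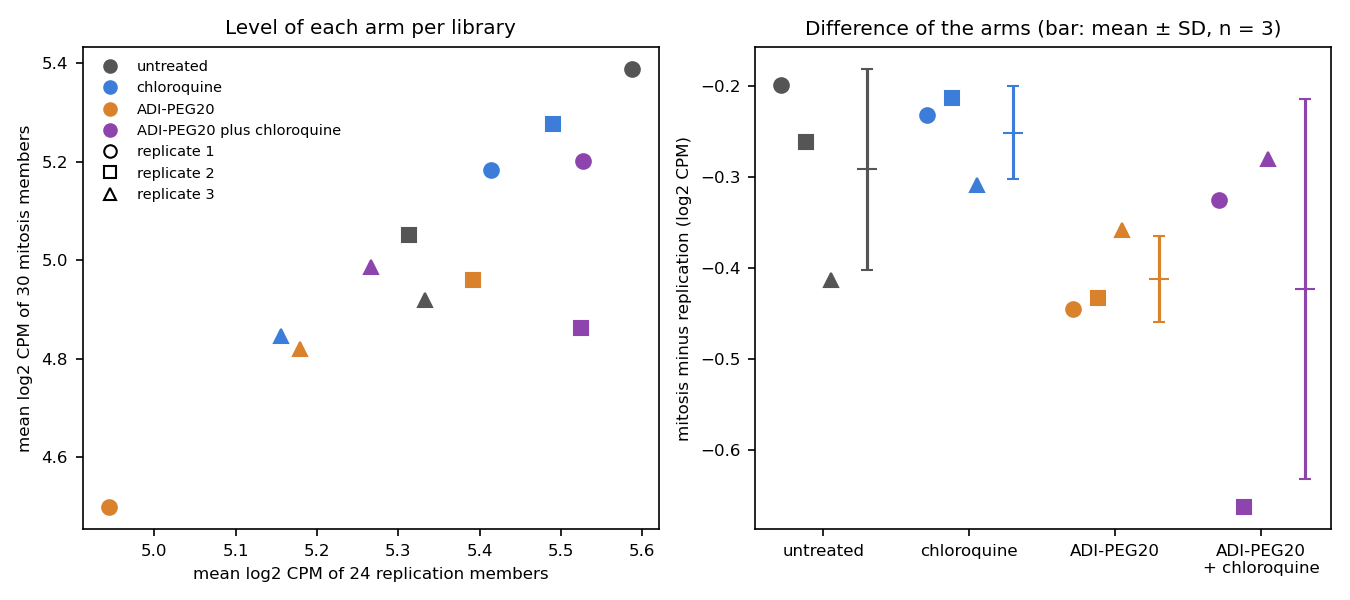
Left, the mean log2 CPM of the 30 mitosis genes against that of the 24 replication genes in each of the 12 libraries; right, mitosis minus replication in log2 CPM per library, with the mean and SD of each group of 3. ADI-PEG20 1 is the lowest library on both levels, and library 2 of the combination has the lowest difference, -0.66.

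The G1 to S genes decide whether a cell enters S phase. With ADI-PEG20, 5 of the 7 were lower (median -0.17), and with chloroquine 4 of the 7 (median -0.04). With ADI-PEG20, 4 of 7 were lower without ADI-PEG20 1 and untreated 1 (median -0.03). Cyclin E1 (Ccne1), the activator of Cdk2 at the start of S phase, had log2 CPM of 3.90, 4.04 and 4.0 in untreated tumors, 4.38, 4.24 and 4.17 with chloroquine, 3.63, 3.88 and 3.60 with ADI-PEG20, and 4.40, 4.06 and 3.72 with both. The ADI-PEG20 libraries were all below and the chloroquine libraries all above the untreated ones, while those of the combination spread across both. Its log2 difference was -0.28 (SE 0.19, 95% limits -0.69 and 0.14, limma adjusted p = 0.684) with ADI-PEG20, 0.28 (SE 0.19, 95% limits -0.13 and 0.70, limma adjusted p = 0.999) with chloroquine and 0.08 (SE 0.19) with both.

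Cyclin D1 (Ccnd1), which joins Cdk4 and Cdk6 in response to growth signals, had log2 CPM of 7.21, 7.84 and 7.07 in untreated tumors, 7.60, 7.47 and 7.36 with chloroquine, 7.28, 7.83 and 7.53 with ADI-PEG20, and 7.79, 8.04 and 7.30 with both. It was one of the 5 genes with a mean above the untreated one in the ADI-PEG20 group, but all groups overlapped, and the difference was 0.17 (SE 0.23) with ADI-PEG20 and 0.34 (SE 0.23, 95% limits -0.15 and 0.83, limma adjusted p = 0.705) with both agents. Its kinase Cdk4 had values of 7.85, 7.16 and 7.19 in untreated tumors, 7.14, 7.50 and 6.90 with chloroquine, 6.84, 7.27 and 7.35 with ADI-PEG20, and 7.43, 7.75 and 7.11 with both. Untreated 1 was the highest of all for Cdk4 and the groups overlapped (-0.25, SE 0.23 with ADI-PEG20). Cdk2, the partner of cyclins E and A, stood at 5.45, 4.96 and 5.19 in untreated tumors, 5.31, 5.26 and 4.90 with chloroquine, 4.99, 5.09 and 5.01 with ADI-PEG20, and 4.88, 5.12 and 4.81 with both. Each group overlapped the untreated one, with a difference of -0.26 (SE 0.17, 95% limits -0.63 and 0.11, limma adjusted p = 0.691) with both agents.

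E2f1, the activator of the G1 to S wave, had values of 4.72, 5.77 and 4.84 in untreated tumors, 4.99, 5.01 and 4.96 with chloroquine, 5.71, 5.04 and 4.92 with ADI-PEG20, and 5.08, 5.09 and 4.93 with both. The highest were untreated 2 and ADI-PEG20 1, and the other 10 libraries lay close together, with a difference of 0.12 (SE 0.26) with ADI-PEG20. The 2 remaining genes of the group, Ccne2 and the repressor E2f8, had differences of -0.16 and -0.32 with ADI-PEG20.

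The licensing and fork genes load and drive the replicative helicase. With ADI-PEG20, 9 of the 10 were lower (median -0.23), with chloroquine 8 of 10 (median -0.13), and with both 4 of 10 (median 0.04). Leaving out ADI-PEG20 1 and untreated 1 gave 6 of 10 lower with ADI-PEG20 (median -0.02). Mcm5, a subunit of the Mcm2 to Mcm7 helicase whose promoter stretch is printed above, had log2 CPM of 6.65, 6.38 and 6.20 in untreated tumors, 6.39, 6.35 and 6.05 with chloroquine, 5.91, 6.19 and 5.98 with ADI-PEG20, and 6.59, 6.15 and 6.15 with both. The ADI-PEG20 libraries were all below the untreated ones, by a narrow margin, with a difference of -0.38 (SE 0.17, 95% limits -0.75 and -0.01, limma adjusted p = 0.594). With both agents the difference was -0.12 (SE 0.17).

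Mcm2, a subunit of the same ring, stood at 6.46, 5.90 and 6.28 in untreated tumors, 6.34, 6.48 and 5.81 with chloroquine, 6.21, 6.30 and 6.13 with ADI-PEG20, and 6.59, 6.55 and 6.11 with both and showed no such order: its difference was 0.00 (SE 0.20) with ADI-PEG20 and 0.20 (SE 0.20) with both. Cdt1, which loads the helicase onto origins, stood at 5.78, 6.18 and 5.49 in untreated tumors, 5.55, 5.46 and 5.28 with chloroquine, 5.93, 5.81 and 4.96 with ADI-PEG20, and 5.20, 5.69 and 5.46 with both. As for E2f1, untreated 2 and ADI-PEG20 1 were the highest, and the differences were -0.39 (SE 0.25, 95% limits -0.93 and 0.15, limma adjusted p = 0.999) with chloroquine and -0.37 (SE 0.25, 95% limits -0.90 and 0.17, limma adjusted p = 0.706) with both. Cdc45, a helicase partner at the fork, stood at 4.86, 4.72 and 4.49 in untreated tumors, 4.36, 4.56 and 4.34 with chloroquine, 4.08, 4.66 and 4.28 with ADI-PEG20, and 4.80, 4.73 and 4.46 with both. Its mean was lower in both single-agent groups than in the untreated and the combined ones, with an interaction of 0.59 (SE 0.26, 95% limits 0.03 and 1.16, limma adjusted p = 0.825).

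Pcna, the sliding clamp of the polymerases, had values of 6.09, 5.88 and 5.63 in untreated tumors, 5.64, 5.86 and 5.29 with chloroquine, 5.22, 6.05 and 6.01 with ADI-PEG20, and 6.17, 6.21 and 5.98 with both. ADI-PEG20 1 stood below the other 2 ADI-PEG20 libraries, which were near untreated 1, and all libraries of the combination lay above all chloroquine libraries (0.52, SE 0.22, 95% limits 0.03 and 1.0, limma adjusted p = 0.707). A processed copy, Pcna-ps2, is listed in the same table, so reads could be split between them and this value is uncertain. The mean over the 12 libraries was 2.07 log2 CPM for the copy and 5.84 for Pcna. The ADI-PEG20 difference of Pcna was -0.10, and 0.17 without ADI-PEG20 1. The other 5 genes of the group, Cdc6, Mcm3, Mcm4, Mcm6 and Mcm7, had differences from -0.38 (Mcm7) to -0.19 (Mcm4) with ADI-PEG20.

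The 4 nucleotide supply genes divided evenly with ADI-PEG20, with 2 lower and 2 higher (median -0.16), also without ADI-PEG20 1 and untreated 1 (median 0.04). Rrm2, the regulated subunit of ribonucleotide reductase, had log2 CPM of 5.65, 5.18 and 5.68 in untreated tumors, 5.35, 5.57 and 5.36 with chloroquine, 4.94, 5.32 and 4.99 with ADI-PEG20, and 5.57, 5.21 and 5.32 with both. Untreated 2 lay within the ADI-PEG20 range, so the groups overlapped, and the difference was -0.42 (SE 0.18, 95% limits -0.80 and -0.04, limma adjusted p = 0.571). Rrm1, the large subunit of the same enzyme, had a difference of -0.36 (SE 0.25), and 0.08 without ADI-PEG20 1 and untreated 1.

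Thymidylate synthase (Tyms), which makes dTMP, stood at 5.16, 4.73 and 4.85 in untreated tumors, 4.94, 4.92 and 4.64 with chloroquine, 4.87, 5.14 and 5.19 with ADI-PEG20, and 5.38, 5.13 and 5.09 with both. Every library of the combination was above every chloroquine library (0.37, SE 0.17, 95% limits 0.00 and 0.73, limma adjusted p = 0.731), while the difference from untreated was 0.29 (SE 0.17, 95% limits -0.08 and 0.65, limma adjusted p = 0.662). Thymidine kinase (Tk1), which salvages thymidine, stood at 5.52, 5.12 and 5.37 in untreated tumors, 5.76, 5.58 and 5.49 with chloroquine, 5.62, 5.48 and 5.0 with ADI-PEG20, and 5.52, 5.18 and 5.58 with both, with a difference of 0.27 (SE 0.19, 95% limits -0.13 and 0.68, limma adjusted p = 0.999) with chloroquine and 0.03 (SE 0.19) with ADI-PEG20. With all libraries, the 2 thymidylate enzymes thus had ADI-PEG20 means above untreated and the 2 reductase subunits below. This contrast was not tested.

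The 3 checkpoint and repair genes had a median difference of -0.65 with ADI-PEG20, and all 3 were lower, but without ADI-PEG20 1 and untreated 1 the median was -0.12 and 2 of the 3 were lower. Brca1, which serves homologous recombination and fork protection, had log2 CPM of 5.43, 4.81 and 4.81 in untreated tumors, 4.90, 5.30 and 4.93 with chloroquine, 3.67, 4.84 and 4.52 with ADI-PEG20, and 5.15, 5.5 and 4.96 with both. ADI-PEG20 1 was by far the lowest and untreated 1 among the highest, and the difference of -0.67 (SE 0.28, 95% limits -1.27 and -0.07, limma adjusted p = 0.57) was -0.12 without those 2 libraries. With both agents Brca1 lay above ADI-PEG20 alone in every library (0.86, SE 0.28, 95% limits 0.25 and 1.46, limma adjusted p = 0.894), and the difference was 0.52 without ADI-PEG20 1.

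Fancd2, which acts at DNA crosslinks, stood at 3.85, 3.42 and 3.86 in untreated tumors, 3.71, 4.05 and 3.62 with chloroquine, 2.89, 3.15 and 3.58 with ADI-PEG20, and 4.13, 4.11 and 3.66 with both. It was higher in every library of the combination than in every ADI-PEG20 library (0.76, SE 0.23, 95% limits 0.26 and 1.27, limma adjusted p = 0.894, or 0.61 without ADI-PEG20 1), and its difference from untreated was 0.26 (SE 0.23, 95% limits -0.24 and 0.77, limma adjusted p = 0.79). The checkpoint kinase Chek1 had a difference of -0.65 (SE 0.37) with ADI-PEG20, with ADI-PEG20 1 the lowest library, at 1.85 log2 CPM, and untreated 1 the highest, at 4.03. Without them it was 0.11, on the other side of 0.

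The mitotic entry genes switch on cyclin B and Cdk1 and the mitotic kinases. All 9 were lower with ADI-PEG20 (median -0.29) and all 9 with both agents (median -0.24), against 4 of 9 with chloroquine (median 0.01). With ADI-PEG20, 6 of 9 were lower without ADI-PEG20 1 and untreated 1 (median -0.15). Without untreated 1, 6 of 9 were lower with both agents (median -0.07). Plk1, the polo kinase that drives entry and spindle assembly and whose CHR is printed above, had log2 CPM of 5.27, 5.15 and 5.20 in untreated tumors, 5.57, 5.39 and 5.24 with chloroquine, 4.58, 5.11 and 4.46 with ADI-PEG20, and 5.12, 4.68 and 4.93 with both. The untreated libraries lay close together, and all ADI-PEG20 libraries and all libraries of the combination lay below them. The difference was -0.49 (SE 0.19, 95% limits -0.89 and -0.09, limma adjusted p = 0.543) with ADI-PEG20, -0.30 (SE 0.19, 95% limits -0.70 and 0.11, limma adjusted p = 0.681) with both, and -0.49 (SE 0.19, 95% limits -0.89 and -0.09, limma adjusted p = 0.666) for both against chloroquine. Without ADI-PEG20 1 and untreated 1 the ADI-PEG20 difference was -0.39.

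Aurora kinase A (Aurka), which matures the centrosomes, had values of 5.13, 5.12 and 4.71 in untreated tumors, 5.0, 5.02 and 4.99 with chloroquine, 4.19, 4.73 and 4.52 with ADI-PEG20, and 4.89, 4.91 and 4.81 with both. ADI-PEG20 2 lay just above untreated 3, so the groups overlapped by that pair, and the difference was -0.51 (SE 0.17, 95% limits -0.88 and -0.14, limma adjusted p = 0.519), or -0.29 without ADI-PEG20 1 and untreated 1. Every library of the combination was above every ADI-PEG20 library and below every chloroquine library, with differences of 0.39 (SE 0.17, 95% limits 0.02 and 0.76, limma adjusted p = 0.894) and -0.13 (SE 0.17).

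Cdk1, the kinase of mitotic entry, had values of 6.09, 5.30 and 5.14 in untreated tumors, 5.22, 5.56 and 4.87 with chloroquine, 4.46, 5.45 and 5.06 with ADI-PEG20, and 5.15, 5.57 and 5.13 with both. Its activator, cyclin B1 (Ccnb1), had values of 5.49, 4.64 and 4.80 in untreated tumors, 4.92, 5.05 and 4.19 with chloroquine, 3.73, 4.72 and 4.73 with ADI-PEG20, and 4.73, 4.75 and 4.49 with both. For both genes, untreated 1 was the highest and ADI-PEG20 1 the lowest of the 12 libraries. The ADI-PEG20 differences were -0.53 (SE 0.29) and -0.59 (SE 0.31), and 0.03 and 0.00 without those 2 libraries. Cdc25c, a phosphatase that activates Cdk1, was scarce, at 2.63, 2.84 and 2.94 in untreated tumors, 2.88, 2.43 and 2.15 with chloroquine, 2.62, 2.27 and 2.63 with ADI-PEG20, and 2.81, 2.39 and 2.36 with both, with a difference of -0.32 (SE 0.26, 95% limits -0.87 and 0.24, limma adjusted p = 0.999) with chloroquine and -0.29 (SE 0.26) with ADI-PEG20.

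The other 4 entry genes, Ccna2, Ccnb2, Cdc25b and Foxm1, had ADI-PEG20 differences of -0.21, -0.24, -0.04 and -0.19. Ccnb2 has a pseudogene copy, Ccnb2-ps, in the table, and its reads are uncertain for that reason. The mean over the 12 libraries was 0.42 log2 CPM for the copy and 4.03 for Ccnb2. Foxm1, the factor that drives the mitotic wave, was the nearest to 0 of the 9 after Cdc25b.

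The spindle checkpoint holds anaphase until chromosomes are attached. All 6 genes of the checkpoint and of anaphase were lower with ADI-PEG20 (median -0.26), 1 of 6 with chloroquine (median 0.06) and 3 of 6 with both (median 0.01). Leaving out ADI-PEG20 1 and untreated 1 gave 2 of 6 lower with ADI-PEG20 (median 0.04). Mad2l1, the inhibitor of the anaphase-promoting complex, had log2 CPM of 4.58, 4.07 and 4.38 in untreated tumors, 4.37, 4.58 and 4.44 with chloroquine, 3.08, 4.34 and 4.07 with ADI-PEG20, and 4.52, 4.51 and 5.29 with both. ADI-PEG20 1 was the lowest and library 3 of the combination the highest of the 12, and all libraries of the combination were above all ADI-PEG20 libraries (0.94, SE 0.30, 95% limits 0.29 and 1.59, limma adjusted p = 0.894, or 0.57 without ADI-PEG20 1). The ADI-PEG20 difference of -0.51 (SE 0.30) was -0.02 without ADI-PEG20 1 and untreated 1.

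Separase (Espl1), the protease that cuts cohesin at anaphase, stood at 6.61, 6.40 and 6.36 in untreated tumors, 6.48, 6.55 and 6.42 with chloroquine, 6.21, 6.47 and 6.02 with ADI-PEG20, and 6.34, 6.16 and 6.07 with both. All libraries of the combination lay below all untreated and all chloroquine libraries, with differences of -0.27 (SE 0.15, 95% limits -0.58 and 0.05, limma adjusted p = 0.635) and -0.30 (SE 0.15, 95% limits -0.61 and 0.02, limma adjusted p = 0.757). Both adjusted p stood far above the threshold. Bub1, Bub1b, Ttk and Cdc20 had ADI-PEG20 differences of -0.29, -0.12, -0.56 and -0.16.

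The centromere and chromosome genes package and join chromosomes in mitosis. All 7 were lower with ADI-PEG20 (median -0.28), 3 of 7 with chloroquine (median 0.10) and 4 of 7 with both (median -0.06). With ADI-PEG20, 4 of 7 were lower without ADI-PEG20 1 and untreated 1 (median -0.002). Cenpa, the histone variant of the centromere, had log2 CPM of 5.54, 5.27 and 4.90 in untreated tumors, 5.35, 5.24 and 5.0 with chloroquine, 4.90, 5.13 and 4.86 with ADI-PEG20, and 5.13, 4.82 and 4.86 with both. The groups overlapped, with a difference of -0.30 (SE 0.18, 95% limits -0.70 and 0.09, limma adjusted p = 0.673) with both agents and -0.27 (SE 0.18) with ADI-PEG20. Cenpf, a kinetochore protein, stood at 5.66, 4.94 and 5.35 in untreated tumors, 5.56, 5.96 and 5.25 with chloroquine, 5.05, 5.29 and 5.46 with ADI-PEG20, and 5.73, 5.21 and 5.55 with both. Chloroquine 2 was its highest library and the differences were 0.27 (SE 0.23, 95% limits -0.21 and 0.76, limma adjusted p = 0.999) with chloroquine and -0.05 (SE 0.23) with ADI-PEG20, the mitosis gene nearest 0 after Cdc25b.

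Mki67, which encodes the Ki-67 antigen used to score proliferation in tissue sections, stood at 8.10, 7.49 and 7.67 in untreated tumors, 8.20, 8.01 and 7.42 with chloroquine, 7.42, 7.68 and 7.47 with ADI-PEG20, and 8.04, 7.51 and 7.73 with both. Its groups overlapped in every comparison, and the differences were -0.23 (SE 0.22, 95% limits -0.69 and 0.24, limma adjusted p = 0.767) with ADI-PEG20, 0.13 (SE 0.22) with chloroquine and 0.01 (SE 0.22) with both. Cenpe, Aurkb, Birc5 and Top2a had ADI-PEG20 differences of -0.37, -0.28, -0.29 and -0.31.

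The 6 spindle and cytokinesis genes, which are motors and microtubule binders of the mitotic spindle and midzone, were all lower with ADI-PEG20 (median -0.33), 5 of 6 with chloroquine (median -0.06) and 5 of 6 with both (median -0.06). Leaving out ADI-PEG20 1 and untreated 1 gave 3 of 6 lower with ADI-PEG20 (median -0.01). The differences with ADI-PEG20 were -0.34 for Kif11, -0.32 for Kif20a, -0.41 for Kif23, -0.34 for Prc1, -0.29 for Tpx2 and -0.32 for Nusap1. No other role had so narrow a range. Kif20a was its single gene whose ADI-PEG20 libraries all lay below the untreated ones.

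The DEP domain pair held the gene with the largest ADI-PEG20 difference of the 54. Depdc1b (chr13:108316332-108407782, plus strand, GRCm38), a DEP domain protein made in dividing cells, had log2 CPM of 2.47, 2.23 and 2.34 in untreated tumors, 2.39, 2.21 and 2.08 with chloroquine, 0.56, 1.19 and 0.78 with ADI-PEG20, and 1.67, 1.4 and 2.22 with both. The ADI-PEG20 libraries lay together well below the untreated and chloroquine libraries, and the libraries of the combination lay above the ADI-PEG20 ones, with library 3 just under the lowest untreated library. The reads behind these values were 138, 76 and 79 in untreated tumors, 98, 99 and 86 with chloroquine, 18, 71 and 39 with ADI-PEG20, and 74, 61 and 102 with both, so counting error is part of the spread in the ADI-PEG20 group. The difference was -1.50 (SE 0.30, 95% limits -2.16 and -0.85, limma adjusted p = 0.481) with ADI-PEG20, -0.58 (SE 0.30, 95% limits -1.24 and 0.07, limma adjusted p = 0.616) with both, 0.92 (SE 0.30, 95% limits 0.27 and 1.57, limma adjusted p = 0.894) for both against ADI-PEG20, and 1.04 (SE 0.43, 95% limits 0.11 and 1.96, limma adjusted p = 0.825) for the interaction. The ADI-PEG20 difference was of like size without ADI-PEG20 1 and untreated 1, at -1.30, and the difference between both agents and ADI-PEG20 was 0.78 without ADI-PEG20 1.

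Its paralog Depdc1a stood at 3.17, 2.72 and 2.62 in untreated tumors, 2.73, 2.73 and 2.08 with chloroquine, 1.88, 2.74 and 2.38 with ADI-PEG20, and 3.42, 2.55 and 3.33 with both. ADI-PEG20 1 and chloroquine 3 were low, libraries 1 and 3 of the combination were the highest, and the groups overlapped. The ADI-PEG20 difference was -0.50 (SE 0.32), or -0.11 without ADI-PEG20 1 and untreated 1, and the difference between both agents and ADI-PEG20 was 0.76 (SE 0.32, 95% limits 0.07 and 1.45, limma adjusted p = 0.894).

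**Figure D5:**
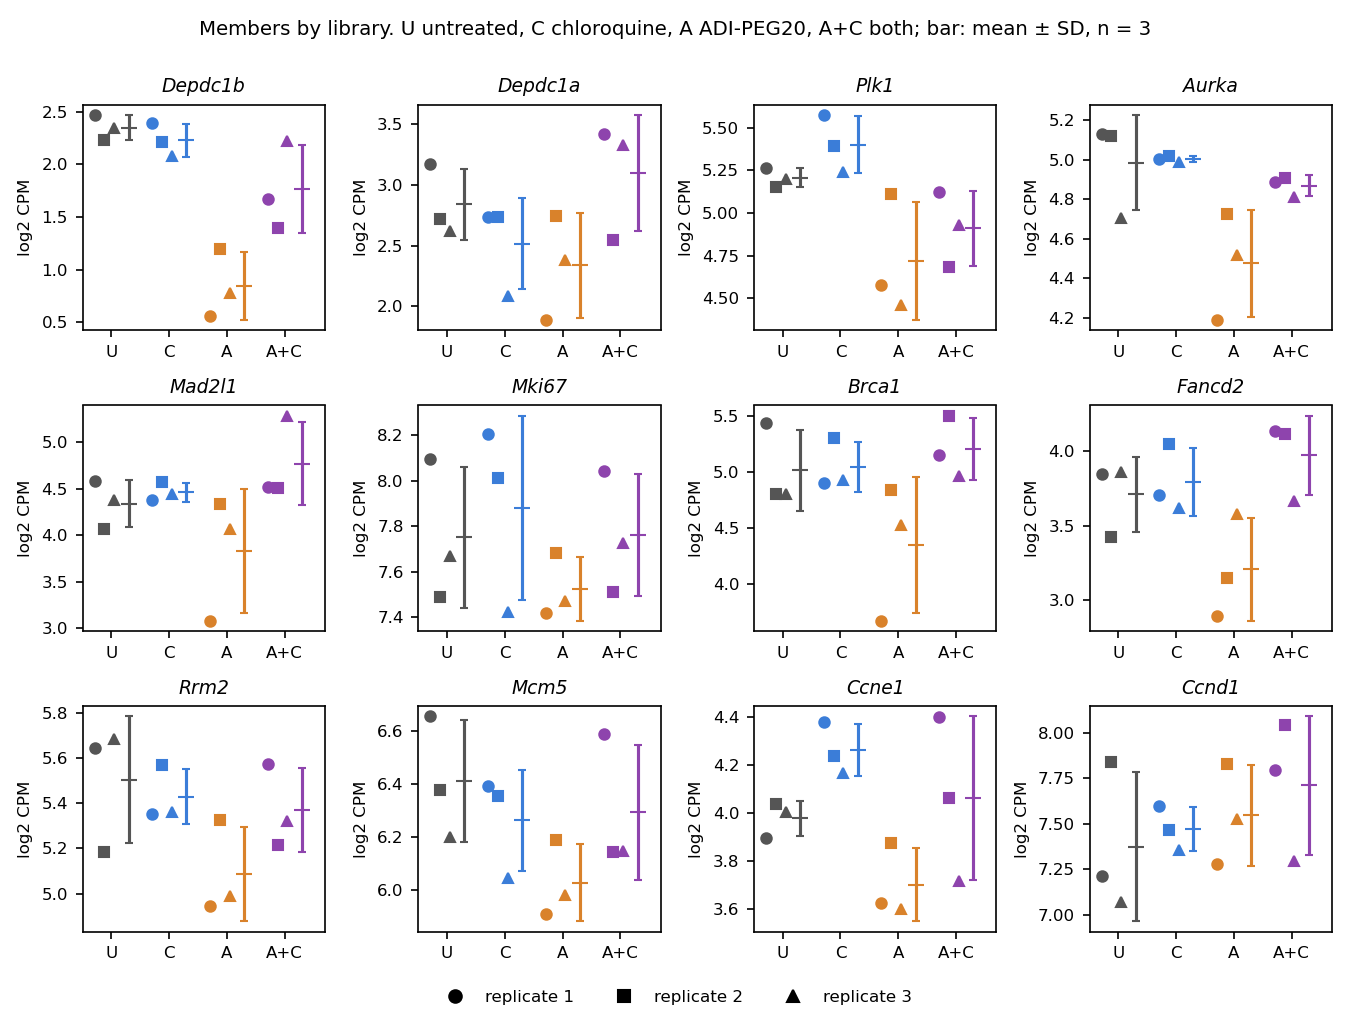
Log2 CPM of 12 of the 54 genes in every library, with the marker shape giving the replicate number and bars giving the mean and SD of each group of 3. Depdc1b sits between 0.56 and 1.19 in the ADI-PEG20 libraries and between 2.23 and 2.47 in the untreated ones, and for Brca1 and Mad2l1 ADI-PEG20 1 sits alone at the bottom.

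Cell cycle genes outside the 54, from lists of other pathway genes, were counted in the same way. Of 37 other replication genes, 31 were lower with ADI-PEG20 (median -0.24), 25 with chloroquine and 20 with both. Of 48 other mitosis genes in the table, 47 were lower with ADI-PEG20 (median -0.33), 30 with chloroquine and 30 with both. A list of 30 brakes and other regulators of the cycle held inhibitors and repressors, but also drivers such as Ccnd2, Cdk6 and Mybl2. Of these 30, 19 were lower with ADI-PEG20 (median -0.17), 11 with chloroquine and 19 with both. Without ADI-PEG20 1 and untreated 1 the ADI-PEG20 counts were 19 of 37 (median -0.02), 31 of 48 (median -0.09) and 17 of 30 (median -0.15). None passed limma's adjusted p of 0.05 in any of these comparisons with all libraries.

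Among the replication genes, the helicase partner Gins2 had the smallest unadjusted p with ADI-PEG20 (-0.74, SE 0.31) with Hells, a chromatin remodeler (-0.48, SE 0.26). With chloroquine these were the nuclease Exo1 (0.62, SE 0.27) and the polymerase subunit Pole2 (0.39, SE 0.32), and with both Exo1 (0.57, SE 0.27) and the ligase Lig1 (-0.31, SE 0.16). Among the mitosis genes they were the kinases Pbk (-0.85, SE 0.24) and Melk (-0.64, SE 0.23) with ADI-PEG20, Oip5, a centromere loading factor, (-1.04, SE 0.51) and Pbk (-0.38, SE 0.24) with chloroquine, and Cdca8, of the Aurora B complex, (-0.43, SE 0.16) and Gtse1 (-0.40, SE 0.16) with both. Among the regulators they were the repressor E2f7 (-0.70, SE 0.23) and Ccng2 (-0.69, SE 0.28) with ADI-PEG20, Btg1 (-0.58, SE 0.19) and E2f7 (-0.39, SE 0.23) with chloroquine, and E2f4 (-0.65, SE 0.23) and E2f7 (-0.58, SE 0.23) with both. E2f7 was thus below untreated in each treated group.

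Markers of other cells also differed between the groups. All 8 macrophage markers were higher with ADI-PEG20 (median 0.63) and all 8 with both agents (median 0.73), with a summed level of 775 to 976 CPM in untreated, 853 to 1167 in chloroquine, 1126 to 1597 in ADI-PEG20 and 1280 to 1696 CPM in the libraries of the combination. All 5 erythroid markers in the table were lower with ADI-PEG20 (median -1.55) and higher with both than with ADI-PEG20 alone (median 1.71). Their summed level was 31.0 to 157 CPM in untreated, 25.5 to 121 in chloroquine, 19.6 to 45.9 in ADI-PEG20 and 34.1 to 202 CPM in the libraries of the combination, so the groups overlapped. The 6 endothelial markers had a median difference of 0.04 with ADI-PEG20. All 8 T cell markers were higher with ADI-PEG20 (median 1.11) and lower with both than with ADI-PEG20 alone (median -0.51), with summed levels of 10.2 to 19.8 CPM in untreated, 14.6 to 42.2 in chloroquine, 26.5 to 30.1 in ADI-PEG20 and 16.1 to 28.2 CPM in the combination, and 1 of them had no read in untreated 2. All 7 adipocyte markers in the table were higher with ADI-PEG20 (median 1.3) and with both agents (median 0.93). The adipocyte sum was 26.2 to 52.9 CPM in untreated, 45.5 to 288 in ADI-PEG20 and 52.7 to 135 CPM in the combination. Both treated groups thus overlapped untreated, and ADI-PEG20 1 was the highest library. Of the 5 keratinocyte markers in the table, 4 were higher with ADI-PEG20 (median 1.04). Their summed level was 5.59 to 44.4 CPM in untreated and 33.1 to 41.5 CPM in ADI-PEG20, so these groups overlapped. In untreated 1, 1 of them had no read. All 10 skeletal muscle markers were lower with both agents than in untreated tumors (median -2.31), than with ADI-PEG20 (median -1.83) and than with chloroquine (median -2.86). None of these lists held a gene that passed limma's adjusted p of 0.05, and their part in the cell cycle results was not tested.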

How the data were processed

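The 54 genes and the other lists were chosen with earlier results of these data known. Reads were processed by the authors: the submitters' processing notes name mm10, STAR 2.5.1a, Salmon 0.8.2, featureCounts 1.4.6-p5, limma and edgeR, with no role or order. The authors deposited log2 CPM for 12 libraries in a table of 16386 lines, of which 51 repeat an identifier and were dropped, leaving 16335 genes. Its log2 values were log2 of the reads plus 0.5, scaled to an effective library size, and whole reads were recovered from 100% of the values under 2000 reads (tolerance 0.02). Per the file headers, the authors also deposited p-values for each comparison and a signed fold change (a score), and p-values of KEGG sets.

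Differences came from limma 3.58.1 (R 4.3.3), run on the log2 CPM of all 12 libraries in 1 model of 4 group means, moderated with a trend, two-sided, with Benjamini-Hochberg adjustment over 16335 genes and a threshold of 0.05. An SE is the standard error of a log2 difference. The fit was tested on simulated data. A group was said not to overlap another where all 3 libraries lay on 1 side of the other 3. Log2 CPM is not adjusted for gene length, so levels of different genes were compared per kilobase of exon (GENCODE, GRCm38). Values in every library are given for the 3 replication and 3 mitosis genes with the smallest unadjusted p in each comparison with untreated tumors, the 3 genes with the smallest in each other comparison, 10 landmark genes and both Depdc1 paralogs. The rest of the 54 are named with their ADI-PEG20 difference, and from each list of other pathway genes the 2 with the smallest unadjusted p in each comparison with untreated tumors. Alternatives were other scalings, filters, pseudocounts, weights, sample sets, a replicate block and libraries left out. By a correlation over 0.1 in every pair, replicate numbers paired only chloroquine with the combination (0.12, 0.11 and 0.15), from the data and not from the labels. With the replicate as a block that comparison also called no gene.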

Additional observations from a re-analysis of the deposited data

How the results depend on the processing

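None of the 54 genes passed the adjusted p of 0.05 under any alternative that was run, in any of the 6 comparisons. The median of the 54 genes kept its sign with ADI-PEG20 but not in the comparisons where it lay near 0: against untreated it was 0.079 with both agents and 0.091 with chloroquine without untreated 1, 0.069 with chloroquine without chloroquine 3, and 0.029 with chloroquine under voom quality weights. Mitosis minus replication, chloroquine minus untreated, was 0.040 and turned to -0.021 without untreated 3. Counts over all genes moved from 0. For both agents against chloroquine they were 1 with voom quality weights, 72 with only the groups compared, 22 without ADI-PEG20 1 and untreated 2 (chosen after seeing the data), and 0 to 1 with 1 library left out at a time. For both agents against untreated they were 8 with a replicate block, and 6 and 17 without each of 2 pairs of libraries chosen after seeing the data, and for ADI-PEG20 against untreated 0 to 1 with 1 library left out at a time. The median of the 54 genes with ADI-PEG20 was -0.023 without ADI-PEG20 1 and untreated 1, a pair chosen after seeing the data. It was -0.228 without ADI-PEG20 1 and untreated 2, a pair chosen in the same way. Mitosis minus replication, both agents minus untreated, was -0.20 to -0.012 with 1 library left out at a time.

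Over all 18 same-numbered pairs the correlation of deviations from the group means was -0.05 to 0.20, over 0.1 in 9, and 9 of 12 libraries correlated best with their own number, a hint from the data and not from the design. The replicate block called none of the 54 and, apart from the 8 genes above, changed no count of calls. Fits with edgeR and DESeq2 were not run, because the deposited unit is log2 CPM. The lowest read number among the 54 genes was 18, for Depdc1b in 1 library.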

Other observations

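For E2f1 and Cdt1, untreated 2 and ADI-PEG20 1 were the 2 highest of the 12 libraries. This held for no other of the 54 genes and for 7.16% of all genes, so it was not more frequent among the 54. This pair was singled out after the values were seen. These are the libraries in which the noncoding transcript Gm26917 took the largest shares of reads, 16.4% and 22.8%, and its part in the values of E2f1 and Cdt1 was not tested.

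The order of libraries within a group recurred across the 54 genes. Chloroquine 3 was the lowest of its 3 libraries for 47 of the 54 genes, where it was for 36.3% of all genes. Untreated 1 was the highest of its 3 for 43 (32.9% of all genes), and library 1 of the combination the highest of its 3 for 36 (33.0%). ADI-PEG20 1 was the lowest of its 3 for 39, where it was for 41.5% of all genes. Over all 12 libraries, ADI-PEG20 1 was the lowest for 31 of the 54 genes (21.6% of all genes) and untreated 1 the highest for 26 (12.8%).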
